A study of Mus musculus with 8 samples.

Results

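The GDNF family receptors and ligands were followed in injured and naive sensory ganglia of the mouse. The set comprised 8 genes of the 24060 rows of the deposited gene table, chosen by symbol with earlier results of these data known. Its members were the co-receptor genes Gfra1, Gfra2, Gfra3 and Gfra4, the kinase gene Ret, and the ligand genes Gdnf, Nrtn and Artn.

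The ganglia were lumbar dorsal root ganglia of levels L4 to L6, which were dissociated before RNA extraction. The series asks how a crush of the sciatic nerve changes the choice of poly(A) sites in these ganglia. The naive group had 4 libraries and the injury group had 4, the latter from ganglia taken 3 days after a crush of 1 sciatic nerve. Both kinds of ganglia came from each of 4 mice, so the naive ganglia also came from animals that had been operated on, and the labels do not say which numbered library belongs to which mouse. Strain, sex and age are not given in the labels. Nothing says that the libraries of a group were prepared separately beyond their replicate numbers, so p-values measure the spread between these libraries.

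GDNF family ligands are secreted survival and growth factors that act as pairs of identical chains. Each ligand binds a co-receptor that is tethered to the cell surface by a lipid anchor: GDNF prefers GFRα1, neurturin GFRα2, artemin GFRα3 and persephin GFRα4. The complex then brings together molecules of RET, a receptor tyrosine kinase that starts the MAP kinase and PI3 kinase cascades. In adult mouse dorsal root ganglia, Ret and Gfra2 are found in the non-peptidergic nociceptors, Gfra3 is found in many peptidergic nociceptors, and Gfra1 is found in subsets of both small and large neurons. GDNF made by Schwann cells of an injured nerve is known to support axon regrowth.

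The libraries were made with QuantSeq REV, a kit whose reads begin at the poly(A) tail, so a transcript gives reads at its 3′ end and not along its length, and levels were not divided by transcript length. No molecular identifiers are named in the labels, so a read need not be a separate molecule. The annotated ends, where such reads are meant to begin, are shown for the 3 receptor genes with the highest levels in the gene table, as 30 bases of the annotated transcript around the poly(A) signal, the short motif that directs cleavage of the RNA upstream of the tail. Capitals mark the signal, searched as AATAAA and, where that was missing, as ATTAAA. The sequences are from GENCODE vM21 on GRCm38 and are written 5′ to 3′ on the strand of the gene.
Gfra1: acctcaAATAAAaaaaatatagacattaaa
Gfra2: ctccAATAAAcgtactaggaagcgagttgc
Ret, longer transcript: gtaaataaAATAAAtcataaaatgtgtcaa
Ret, shorter transcript: ctttgtcttggATTAAAtacttgaaatttt
The Gfra1 stretch lies at chr19:58235604-58235633 on the minus strand, and its signal ends 18 bases before the annotated transcript end. The Gfra2 stretch lies at chr14:70979799-70979828 on the plus strand, with 30 bases between signal and end. In a second deposited table, of counts per genomic window, the windows chr14:70979785-70979810, which overlaps this stretch, and chr14:70979584-70979619 upstream of it had 0 counts in all libraries, so where the Gfra2 reads of the gene table begin was not seen. Both belong to the 20990 windows that are listed there more than once, of which 56.2% had 0 counts in every library. For Ret the ends of 2 annotated transcripts were read, and whether further ends are annotated was not looked up. That of the longer transcript is covered by chr6:118151745-118151774 and that of the shorter by chr6:118154566-118154595, both on the minus strand. They have 16 and 13 bases between signal and end. The deposited Ret count does not separate these ends. The last 500 bases of the transcripts Gfra1-201, Gfra2-201, Gfra3-201, Gfra4-201, Ret-201 and Ret-202 share runs of at most 8 to 12 bases from pair to pair. No near-identical stretch within the family was thus found at these annotated ends, and sequence elsewhere was not compared.

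Total gene counts ranged from 16539644 to 28950551 per library. A count of 3, taken here as the floor below which a level is not read, was worth 0.106 to 0.184 CPM (counts scaled to library size with TMM factors). Genes of sensory neurons were abundant in every library: the 14 pan sensory neuron markers, such as Tubb3, Prph and Avil, summed to 21631 to 22478 CPM in naive and 21600 to 26355 CPM in injury libraries. Naive 2, injury 2 and injury 3 stood apart for some genes in an earlier analysis of these data. The adaptor gene Frs3, for example, was at 14.4, 0.334, 14.5 and 18.1 CPM in naive libraries 1 to 4 and at 6.10, 0.106, 0.0483 and 8.76 CPM in injury libraries 1 to 4. Results on the receptors are therefore also given without these 3 libraries.

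Receptor genes changed in different directions after the crush. Of the 8 members, 5 had enough counts to be tested: Gfra1, Gfra3 and Ret rose, Gfra2 fell, and Gfra4 did not pass. The 3 ligand genes were too low to test. Over all 13770 tested genes, 17.8% passed the threshold of 0.05 on the adjusted p of edgeR's quasi-likelihood test, 10.1% as higher and 7.76% as lower in injury. The median log2 fold change over all tested genes was -0.02, injury minus naive.

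**Figure D1:**
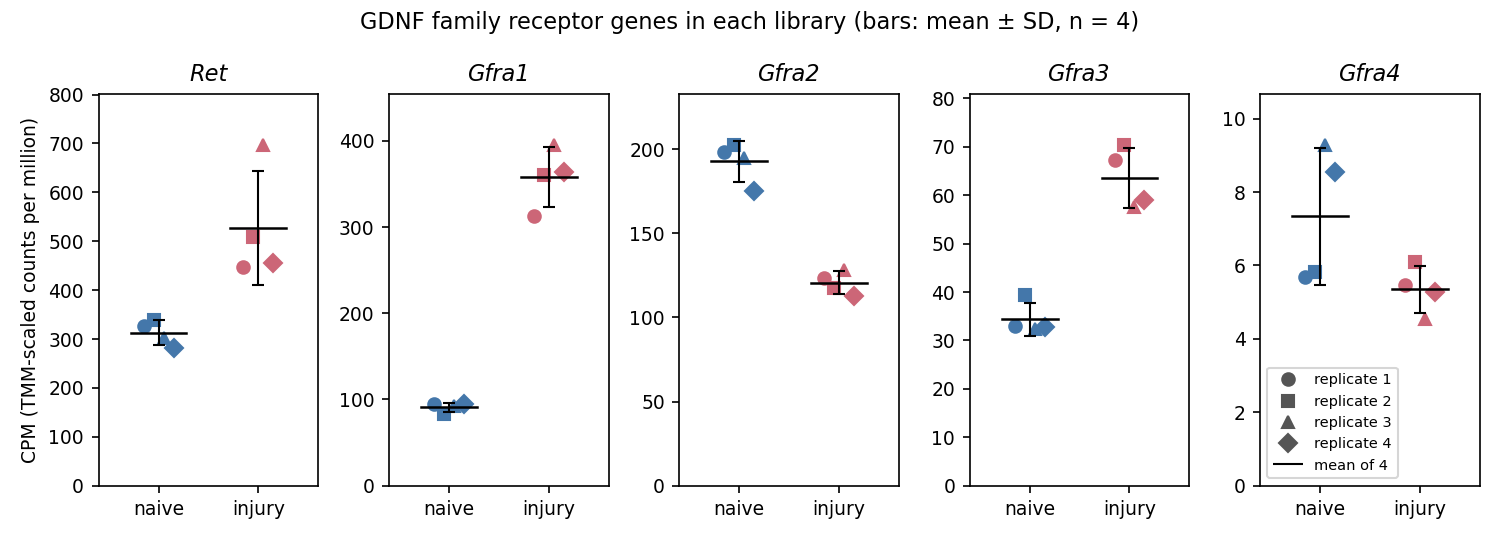
CPM scaled with TMM factors (linear axes, a scale of its own for each gene) of the 5 tested receptor genes in each library; markers give the replicate number, horizontal lines the mean and bars the SD of 4 libraries. For Ret, Gfra1 and Gfra3 every injury library lies above every naive library, for Gfra2 every injury library lies below, and for Gfra4 the groups overlap.

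Ret encodes the kinase shared by all of the ligands and lies at chr6:118151745-118197718 on the minus strand of GRCm38. Its level was 327, 339, 303 and 281 CPM in naive libraries 1 to 4 and 447, 508, 698 and 455 CPM in injury libraries 1 to 4. Every injury library was above every naive library, and injury 3 stood highest by a wide gap. Mean levels were 312 ± 25.7 CPM and 527 ± 117 CPM (SD, n = 4 per group), a 1.69-fold rise. The log2 fold change was 0.75 with a standard error of 0.13 and an adjusted p of 0.00179 by edgeR's quasi-likelihood test. Without injury 3 it was 0.59 with an adjusted p of 0.000429, and without the 3 libraries named above it was 0.56 with an adjusted p of 8.63e-05 by the same test. In bulk ganglia, a change in the number of cells of a type and a change in the RNA per cell cannot be told apart, here and for every result that follows.

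Gfra1, the co-receptor gene for GDNF, changed the most of the family. It lies at chr19:58235604-58455909 on the minus strand. It had 94.3, 82.9, 92.4 and 94.4 CPM in naive libraries 1 to 4 and 312, 361, 396 and 364 CPM in injury libraries 1 to 4. The lowest injury library was more than 3-fold above the highest naive library. These values rest on 1691 to 2162 reads per naive library and on 5934 to 10183 reads per injury library. The means were 91.0 ± 5.46 and 358 ± 34.3 CPM (SD, n = 4 per group), a 3.93-fold rise. Its log2 fold change of 1.98 had a standard error of 0.09 and an adjusted p of 2.01e-08 by edgeR's quasi-likelihood test, rank 21 of all tested genes by p. Without the 3 libraries that stood apart it was 1.85.

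Gfra2, the co-receptor gene for neurturin, was the family member that fell. It lies at chr14:70890120-70979838 on the plus strand. Its level was 198, 203, 195 and 175 CPM in naive libraries 1 to 4 and 124, 117, 128 and 113 CPM in injury libraries 1 to 4. All injury libraries were below all naive libraries, and each group was narrow. The means of 193 ± 12 and 121 ± 6.81 CPM (SD, n = 4 per group) gave an injury level that was 0.625 of the naive one. By edgeR's quasi-likelihood test the log2 fold change was -0.68, with a standard error of 0.08 and an adjusted p of 9.05e-05, and it was -0.68 again without the 3 libraries.

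Gfra3, the co-receptor gene for artemin, rose from a lower level. It lies at chr18:34689898-34720387 on the minus strand. Naive libraries 1 to 4 had 33.1, 39.4, 32.3 and 32.7 CPM, and injury libraries 1 to 4 had 67.2, 70.4, 57.5 and 59.1 CPM. The groups did not overlap, and naive 2 was the highest of its group. The means were 34.4 ± 3.37 and 63.6 ± 6.26 CPM (SD, n = 4 per group), a 1.85-fold rise. The log2 fold change was 0.89, with a standard error of 0.11 and an adjusted p of 0.000124 by edgeR's quasi-likelihood test. It was 0.95 without the 3 libraries.

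Gfra4, the co-receptor gene for persephin, was the rarest of the receptors and did not pass the test. It lies at chr2:131039632-131043088 on the minus strand. Its level was 5.67, 5.83, 9.29 and 8.55 CPM in naive libraries 1 to 4 and 5.48, 6.09, 4.54 and 5.27 CPM in injury libraries 1 to 4. Naive 3 and naive 4 were above all other libraries, while naive 1 and naive 2 lay within the injury range. The means were 7.34 ± 1.86 and 5.34 ± 0.641 CPM (SD, n = 4 per group), on 86 to 196 reads per library. The log2 fold change of -0.45 had a 95% confidence interval from -0.91 to 0.01 and an adjusted p of 0.168 by edgeR's quasi-likelihood test.

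For comparison, CPM ranges that do not overlap between the groups were found for 12.6% of the tested genes with injury higher and for 10.8% with injury lower. The order of the receptor levels also changed. In naive ganglia it was Ret, Gfra2, Gfra1, Gfra3, Gfra4 from high to low, and in injured ganglia Gfra1 and Gfra2 had changed places. In neither group did the ranges of neighbouring genes in that order overlap. The place of Gfra3 depends on which reads are given to it, because a repeat window 1476 bases past its annotated end held 717 to 1937 reads a library. With these reads added, an alternative chosen after their values were seen, Gfra3 had 71.5 to 108 CPM in naive and 116 to 143 CPM in injury libraries. These ranges overlap those of Gfra1 in naive and of Gfra2 in injury libraries, while the log2 fold change of Gfra3 was 0.63 with an adjusted p of 0.00405 by edgeR's quasi-likelihood test.

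Within a library, the mix of co-receptor transcripts can be read without any scaling between libraries. Gfra1 made up 28.5%, 25.1%, 28.1% and 30.3% of the summed Gfra1 to Gfra4 counts in naive libraries 1 to 4 and 61.4%, 65.1%, 67.5% and 67.2% in injury libraries 1 to 4. Gfra2 made up 59.8%, 61.3%, 59.3% and 56.4% in naive and 24.3%, 21.1%, 21.9% and 20.9% in injury libraries. The leading co-receptor transcript was thus that of Gfra2 in every naive library and that of Gfra1 in every injury library. For each Gfra2 count there were 0.409 to 0.538 Gfra1 counts in naive and 2.53 to 3.22 in injury libraries. Gfra3 held 10.6% ± 0.948 in naive and 11.7% ± 1.58 in injury libraries (SD, n = 4 per group), and its ranges overlapped. Gfra4 held 2.26% ± 0.608 in naive and 0.981% ± 0.148 in injury libraries (SD, n = 4 per group). These shares depend on each other and on the same counts as the gene tests, so they are given as a description. With the window past the Gfra3 end added to its count, Gfra2 held 49.4% to 53.0% in naive and Gfra1 53.5% to 60.8% in injury libraries, and Gfra3 held 19.4% to 27.1% over all 8 libraries.

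**Figure D2:**
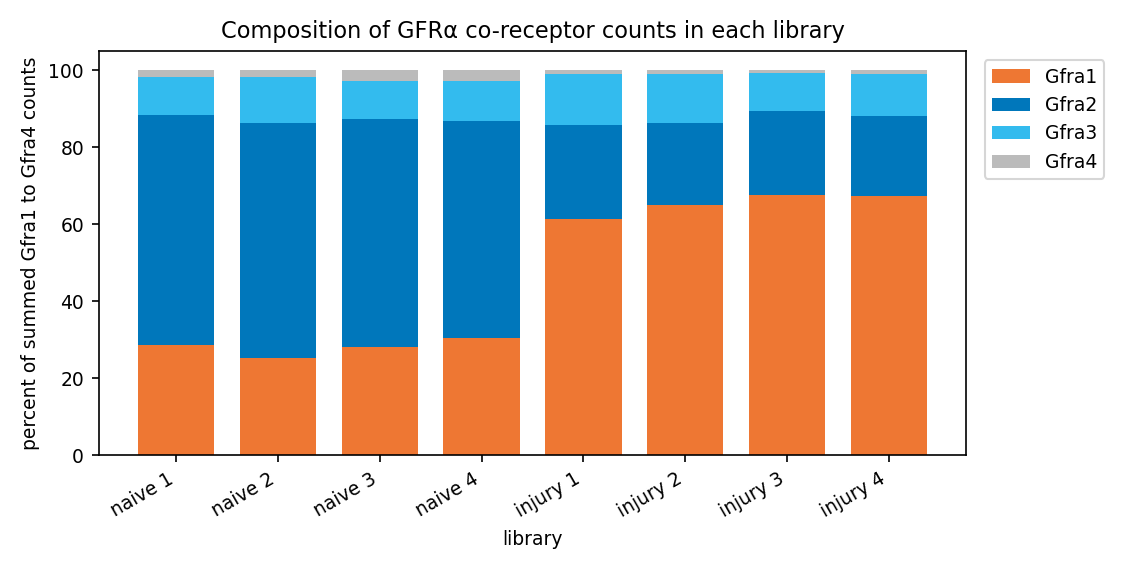
Percent of the summed Gfra1, Gfra2, Gfra3 and Gfra4 counts held by each gene (stacked bars, linear axis) in each of the 8 libraries. Gfra2 is the largest part in the naive libraries at 56.4% to 61.3%, and Gfra1 is the largest part in the injury libraries at 61.4% to 67.5%.

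Summed over the co-receptors, levels were 311 to 331 CPM in naive and 509 to 586 CPM in injury libraries. Set against the kinase they work with, there were 0.976 to 1.11 co-receptor counts for each Ret count in naive libraries and 0.840 to 1.19 in injury libraries, so these ranges overlapped. Taken 1 by 1, the co-receptors moved apart. For each 100 Ret counts there were 28.8, 24.5, 30.5 and 33.6 Gfra1 counts in naive libraries 1 to 4 and 69.95, 71.0, 56.7 and 79.99 in injury libraries 1 to 4. Gfra2 went the other way, from 60.6, 59.8, 64.4 and 62.4 counts for each 100 Ret counts to 27.7, 23.1, 18.4 and 24.8. The groups did not overlap for either ratio.

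On the log2 scale the Gfra1 to Ret ratio was higher by 1.24 in injury libraries, and the Gfra2 to Ret ratio fell by 1.41. An exact permutation test, two-sided and over the 8 libraries, gave p = 0.0286 for each, the smallest value that 4 against 4 allows. It was 0.0429 after Benjamini-Hochberg adjustment over the 3 ratios tested. The ratios use the counts of the gene tests and share Ret, so these p-values add no separate support. With Gfra2 lower and Ret higher without overlap, the smallest p for their ratio followed from the gene levels. The Gfra3 to Ret ratio was 10.1, 11.6, 10.7 and 11.6 Gfra3 counts for each 100 Ret counts in naive libraries 1 to 4 and 15, 13.9, 8.24 and 13.0 in injury libraries 1 to 4. Only injury 3 was below the naive libraries. The log2 difference of this ratio was 0.15 (exact permutation p = 0.543, n = 4 per group), and without injury 3 it was 0.34 (exact permutation p = 0.0286, the smallest the remaining libraries allow). With the window past its end added it was -0.09 (exact permutation p = 0.629, n = 4 per group). Injury 3 is also the library with the highest Ret level.

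**Figure D3:**
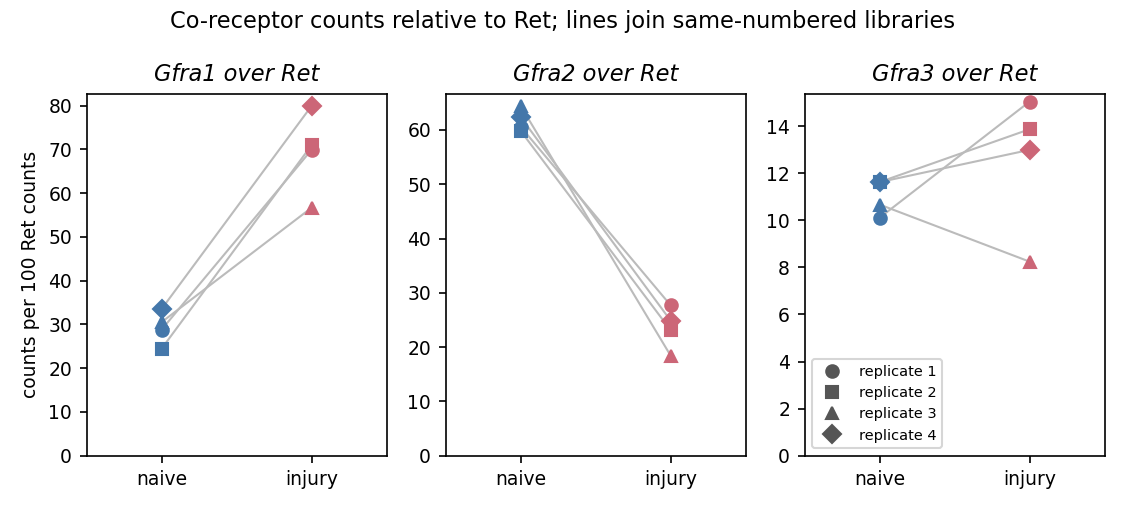
Counts of Gfra1, Gfra2 and Gfra3 for each 100 counts of Ret in each library (linear axes from 0, a scale of its own for each gene); grey lines join libraries of the same number, which the labels do not tie to the same mouse. The Gfra1 ratio lies at 24.5 to 33.6 in naive and 56.7 to 79.99 in injury libraries, the Gfra2 ratio at 59.8 to 64.4 and 18.4 to 27.7, and the Gfra3 ratio overlaps.

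The ligand genes had at most 26 counts in any library, many of them at or under the floor of 3 counts, and none passed the filter on low counts. Gdnf, the ligand gene of GFRα1, had 0, 0, 7 and 3 counts in naive libraries 1 to 4 and 4, 5, 12 and 4 counts in injury libraries 1 to 4. Nrtn, which encodes neurturin, had 2, 9, 1 and 21 counts in naive and 6, 22, 26 and 5 counts in injury libraries. Artn, which encodes artemin, had 0, 0, 3 and 5 counts in naive and 1, 11, 0 and 1 counts in injury libraries. The groups overlapped for Nrtn and Artn, and for Gdnf naive 3 lay within the injury counts. At these counts no difference was detectable: summed over 4 libraries, Gdnf had 10 naive and 25 injury counts, Nrtn 33 and 59, and Artn 8 and 13. In a fit with no filter on low counts, edgeR's quasi-likelihood test gave adjusted p-values of 0.574 for Gdnf, 0.590 for Nrtn and 0.881 for Artn.

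**Figure D4:**
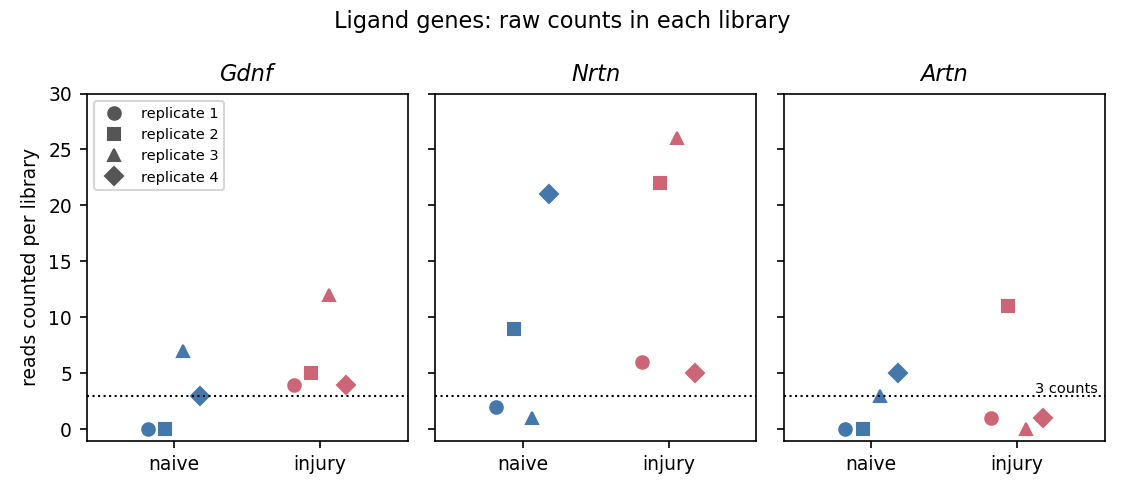
Raw read counts of Gdnf, Nrtn and Artn in each library (linear axis); markers give the replicate number and the dotted line marks 3 counts. No ligand gene exceeds 26 counts in any library, and the groups overlap in each panel.

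Of the family genes outside the set, Pspn, which encodes persephin, and Gfral, the co-receptor gene for GDF15, had 0 counts in all 8 libraries. The floor of 0.106 to 0.184 CPM bounds only reads that were counted for a gene. Reads that begin outside an annotated gene would be missed, so these zeros do not show absence of the transcripts. Trpv1, of the peptidergic nociceptor list below, had 0 counts in every naive library and 2, 0, 0 and 3 in injury libraries 1 to 4. Gdf15, a distant member of the ligand family that signals through GFRAL and RET, had 3.91 ± 0.677 CPM in naive and 4.74 ± 2.45 CPM in injury libraries (SD, n = 4 per group). It did not pass edgeR's quasi-likelihood test, with a log2 fold change of 0.28 and an adjusted p of 0.601, and injury 3 was highest at 8.35 CPM.

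The genes that work with the ligands, RET and its signal were read from lists, each given by its counts beside the 10.1% higher and 7.76% lower over all tested genes. Adjusted p-values in this and the following paragraphs are those of edgeR's quasi-likelihood test over all tested genes. Of 10 other receptors and partners of the ligands, 4 rose and 1 fell, and the list's median log2 fold change was 0.28. Itgb1, the β1 integrin subunit, went from 266 ± 16.2 to 481 ± 56.9 CPM (mean ± SD, n = 4 per group here and below; log2 fold change 0.85, adjusted p = 5.69e-05). Ncam1, an alternative GDNF receptor, went from 201 ± 23.3 to 265 ± 23.4 CPM (log2 fold change 0.40, adjusted p = 0.0131). Lrig1, a membrane protein that restrains RET, rose from 5.14 ± 2.14 to 11.3 ± 2.39 CPM, and Sdc3, a heparan sulfate proteoglycan that binds GDNF, rose by 0.38 on the log2 scale. The Sdc3 call was lost without naive 3, naive 4 or injury 2, where the adjusted p reached 0.0578. The member that fell was Sorl1, a sorting receptor for GDNF and GFRα1, from 144 ± 16.3 to 79.9 ± 10.6 CPM (log2 fold change -0.85, adjusted p = 0.000256). With the 3 libraries left out together, and likewise with library sizes alone in place of TMM factors, 2 members of this list fell.

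Among adaptors and effectors of RET, 31 of 35 genes were tested, 7 rose and 3 fell, and the median log2 fold change was -0.11. Those that rose included Grb10, an adaptor that binds RET, from 26.8 ± 1.87 to 44.9 ± 4.06 CPM (adjusted p = 0.000427), and Irs2, an insulin receptor substrate, from 24.9 ± 2.55 to 52.2 ± 16.4 CPM (adjusted p = 0.00271). Stat3, a transcription factor, went from 506 ± 23.2 to 661 ± 26.4 CPM, and smaller rises were called for Grb2, Akt1, Shc2 and Map2k2. Sos1, the exchange factor that links GRB2 to RAS, fell from 152 ± 8.74 to 96.9 ± 20.8 CPM (adjusted p = 0.0047), and the adaptor gene Shc1 fell as well. The calls for Shc1, Shc2 and Map2k2 were each lost when some single libraries were left out, and those for Shc2 and Map2k2 also with library sizes alone, with adjusted p-values of up to 0.0646, 0.0950 and 0.103. With library sizes alone 5 rose and 5 fell, and with the 3 libraries left out together 5 fell.

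Of 12 tested out of 14 genes that take RET from the surface or damp its signal, 1 rose and 5 fell, and their median log2 fold change was -0.18. Sh3kbp1, a CBL-binding adaptor of receptor uptake, rose from 25.5 ± 1.70 to 49.2 ± 5.07 CPM (log2 fold change 0.95, adjusted p = 7.62e-05). Nedd4l, a ubiquitin ligase, fell from 283 ± 15.2 to 209 ± 10.6 CPM (adjusted p = 0.0015). The calls for Ptprf, Cd2ap and Nf1 were each lost when some single libraries were left out. In the fit with no filter on low counts 2 rose, the second being Cblc, a ubiquitin ligase gene of the CBL family, with 0, 0, 2 and 0 counts in naive and 7, 22, 19 and 7 in injury libraries (adjusted p = 0.0189). The count of genes that fell was 2 without naive 1 and 3 without naive 2, naive 3 or injury 3.

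Of 13 tested out of 15 genes that respond to ERK signalling, none rose and 2 fell, and their median log2 fold change was -0.26. Etv1, an ETS factor, went from 25.2 ± 4.48 to 12.7 ± 1.36 CPM (adjusted p = 0.000611), and Spry4, a feedback inhibitor, from 9.01 ± 2.04 to 3.96 ± 1.42 CPM (adjusted p = 0.00883). The feedback phosphatase gene Dusp6 was at 97.9 ± 10.4 and 121 ± 15.3 CPM (adjusted p = 0.0765), and Ier3 at 283 ± 11.2 and 347 ± 50.9 CPM (adjusted p = 0.0562). At an unadjusted p under 0.05 there were 6 genes of this list in either direction. DESeq2 called 2 of the list as higher, and leaving out injury 2, injury 4, or the 3 libraries together gave 1 higher.

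Transcription factor genes of Ret-positive sensory neurons fell in 5 of 12 tested cases and rose in 1, out of 14 listed, with a median log2 fold change of -0.33. Runx1, the factor that sets the non-peptidergic fate, had 116 ± 1.39 CPM in naive and 72.5 ± 11.7 CPM in injury libraries (log2 fold change -0.68, adjusted p = 0.000957). Prdm12, a regulator of nociceptor identity, fell from 43.6 ± 4.01 to 26.6 ± 5.10 CPM, and Pou4f1, a factor of all sensory neurons, from 192 ± 1.91 to 148 ± 8.79 CPM. Klf7, a Krüppel-like factor, rose from 258 ± 33.8 to 335 ± 3.36 CPM (adjusted p = 0.0128). The calls for Pou4f2 and Zfhx3 were lost without some libraries, and 3 genes fell without naive 3 or without injury 2.

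Markers of non-peptidergic and Ret-lineage neurons, the cells in which Gfra2 is best known, fell in 11 of 20 tested cases and rose in 1, out of 23 listed. The median log2 fold change of this list was -0.49. Mrgprd, a receptor of non-peptidergic nociceptors, fell from 87.6 ± 8.65 to 50.1 ± 3.09 CPM (log2 fold change -0.81, adjusted p = 0.000106). Scn11a, a sodium channel gene, fell from 349 ± 33.9 to 213 ± 7.73 CPM (log2 fold change -0.71, adjusted p = 8.8e-05). Th, which marks touch neurons of the C-fibre class, fell from 87.8 ± 10.7 to 60.1 ± 9.85 CPM, and Lpar3 and Agtr1a fell as well. The exception was Il31ra, an itch receptor gene, which rose from 12.3 ± 1.11 to 26.3 ± 3.17 CPM (log2 fold change 1.09, adjusted p = 0.000104). P2rx3, an ATP-gated channel gene, was at 112 ± 7.18 and 138 ± 17.9 CPM and did not pass (adjusted p = 0.0576). The calls for Prkcq, Plxnc1, Ptgdr, Mrgpra3 and Cd55 were each lost when some single libraries were left out, and that for Cd55 also with DESeq2. The number of markers that fell was 6 without naive 1 or without injury 2, and 7 without naive 2. Without injury 4 or with DESeq2, 2 rose.

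Markers of peptidergic nociceptors, among which Gfra3 is common, fell in 7 of 12 tested cases and rose in 1, out of 13 listed, with a median log2 fold change of -0.55. Tac1, which encodes substance P, went from 482 ± 43.8 to 307 ± 40.2 CPM (adjusted p = 0.000921), and Calcb, which encodes a CGRP peptide, from 246 ± 9.29 to 177 ± 12.6 CPM (adjusted p = 0.00105). Adcyap1, which encodes the neuropeptide PACAP, rose from 79.1 ± 9.15 to 221 ± 22.1 CPM (log2 fold change 1.48, adjusted p = 1.04e-06). Gfra3 therefore moved opposite to most called markers of this list. Gfra2 moved in the direction of most called markers of the non-peptidergic and Ret-lineage list, and Ret itself moved opposite to them. These lists overlap in the cells they mark, and no test of a list was made.

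**Figure D5:**
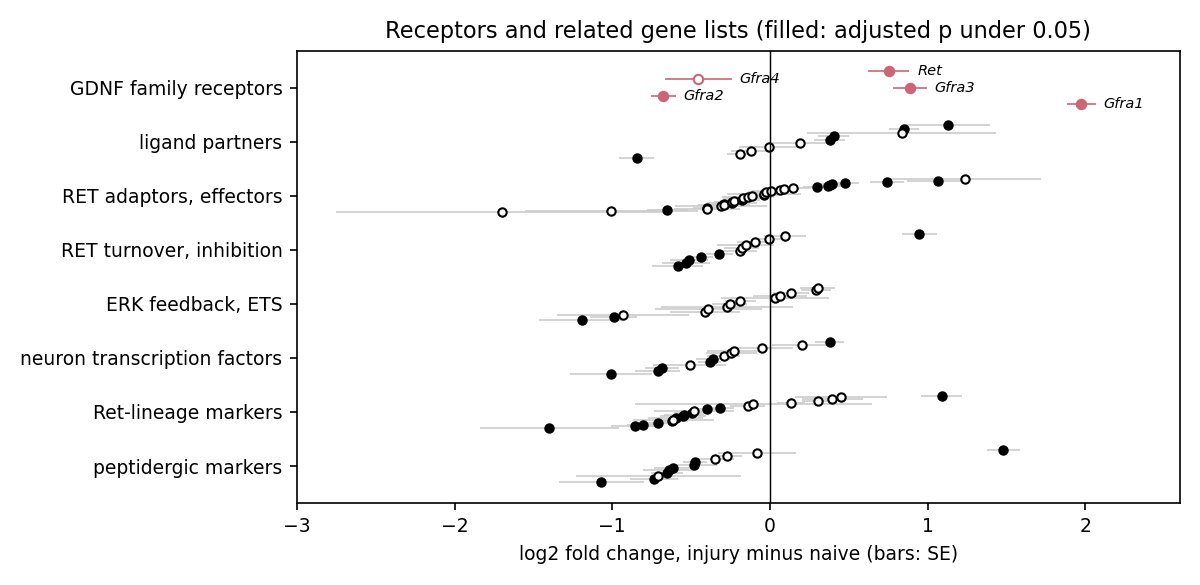
Log2 fold change, injury minus naive, of the 5 tested receptor genes (red, named) and of the tested genes of 7 related lists (black); bars are standard errors and filled points have an adjusted p under 0.05 in edgeR's quasi-likelihood test over all tested genes. Gfra1 at 1.98 lies to the right of every called point of the lists, and called points of the marker lists in the lowest rows lie mostly left of 0.

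Genes of other cells that the ganglia hold were read beside the receptors. Of 12 macrophage markers 7 rose and none fell. Their summed level was 13.7 to 32.1 CPM in naive and 43.1 to 65.4 CPM in injury libraries, and the examples Cx3cr1 and C1qa had log2 fold changes of 2.30 and 1.91. Without naive 2, injury 2 and injury 3, 4 of them rose. Ptprc and Lyz2 of this list pointed lower, with log2 fold changes of -0.89 and -0.80, and did not pass (adjusted p = 0.290 and 0.255). The part of macrophages in the receptor results was not tested. Of 15 tested markers of satellite glia and Schwann cells out of 16, 1 rose and none fell: Glul, the glutamine synthetase gene of satellite glia, went from 334 ± 23.7 to 518 ± 51.5 CPM (adjusted p = 0.000333). A further member rose without naive 2 or without the 3 libraries together. Summed levels of that list overlapped, at 5211 to 5788 CPM in naive and 5416 to 6442 CPM in injury libraries. The repair Schwann cell list, cells known to make GDNF after injury, had 7 of 12 genes tested. Of these, 6 were not called, and Bdnf rose (adjusted p = 0.0399), in cells that were not identified. That call was lost without any 1 of the 4 naive libraries, injury 1 or injury 4, with library sizes alone and with limma-voom, and Clcf1 and Lif of this list had 0 counts in all libraries.

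Of 14 pan sensory neuron markers 1 rose and 3 fell: Tubb3 rose by 0.55 on the log2 scale, and Scn10a, Snap25 and Pou4f1 fell by 0.64, 0.69 and 0.38. Without injury 1 or injury 4 it was 2 that rose, and without injury 3, without injury 4 or without the 3 libraries together it was 5 that fell. Library sizes alone gave 7 that fell, limma-voom 5, and DESeq2 and the replicate block each 2 that rose and 5 that fell. Apod rose among 9 tested of 10 fibroblast markers. Of 5 tested of 8 neutrophil and lymphocyte markers, Ltf fell (adjusted p = 0.0419) and none rose. The number that fell there was 0 without naive 3, naive 4, injury 1 or injury 2, 3 without naive 1 or naive 2, 4 without injury 4, without the 3 libraries together or with no filter, and 5 with the replicate block. None of 8 endothelial, 7 tested mural and 4 tested red cell and muscle markers was called by edgeR's quasi-likelihood test without a block, DESeq2 or limma-voom, while the replicate block called the red cell genes Slc4a1 and Alas2 as lower (adjusted p = 0.00289 and 0.0118). At an unadjusted p under 0.05 there were 0, 0 and 1 of them.

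The genes whose log2 CPM most resembled each receptor over the 8 libraries were taken from the 9045 genes whose log2 CPM averaged 3 or more. For Gfra1 these were Npy, which encodes neuropeptide Y (Pearson r = 0.997), the adhesion receptor gene Gpr133 (r = 0.996) and the tubulin gene Tuba1c (r = 0.996). For Gfra2 they were the glycosyltransferase gene Galnt14 (r = 0.989), Cyhr1 (r = 0.986) and the nuclear receptor gene Nr2f6 (r = 0.984). For Gfra3 they were Mocs2 (r = 0.997), the major vault protein gene Mvp (r = 0.994) and Nnat (r = 0.993). For Ret they were the Elongator gene Elp5 (r = 0.991), the metallothionein gene Mt2 (r = 0.989) and Cdc34 (r = 0.989), a ubiquitin-conjugating enzyme gene. These correlations are a description over libraries that fall into 2 separate groups. The log2 fold change of Npy was 7.03 beside 1.98 for Gfra1, that of Mocs2 0.65 beside 0.89 for Gfra3, and that of Elp5 0.55 beside 0.75 for Ret.

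The second deposited table, of read counts per genomic window, bears on where reads of these genes begin. Its windows on the strand of a receptor gene lay mainly in repeats of introns, so it gave no ratio between annotated ends, and the counting of multi-mapping reads in such repeats is not stated. The 6 windows of Gfra1 held 125 counts in all, the 4 of Ret held 519, or 0.540% to 1.18% of the gene count, and the 5 of Gfra2 had 0 counts in every library although the gene table counts Gfra2 well. The 8 intronic windows of Gfra3 held 2075 counts, equal to 13.4% to 33.7% of its gene count in a library. Most of these lay in 1 Alu repeat window at chr18:34708616-34708641 of GRCm38, as the table gives it. Of the counts of the 2 windows that each held at least 5% of the gene's window counts, it took 83.9% ± 8.85 in naive and 85.9% ± 6.39 in injury libraries (SD, exact permutation p = 0.714, n = 4 per group). Of the counts of all 8 windows, it took 66.1% ± 11.8 and 77.5% ± 7.60 (SD, exact permutation p = 0.171, n = 4 per group), so neither share passed. Its level went from 3.94 ± 0.929 to 13.6 ± 3.71 CPM with no overlap, 3.46-fold, beside 1.85-fold for the gene (two-sided exact permutation p = 0.0286, n = 4 per group, and 0.15 after adjustment over the 7 windows tested). The leading window of Ret, an Alu repeat at chr6:118160920-118160945, held 60.4% ± 21.6 and 55.9% ± 7.23 of the counts of its 2 windows over that minimum (SD, exact permutation p = 0.714, n = 4 per group), and 57.6% ± 20.2 and 50.8% ± 6.76 of all 4 (SD, exact permutation p = 0.6, n = 4 per group). That of Gfra1 rested on 2 to 29 window counts a library and is not read further.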

How the data were processed

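Raw read counts, per gene and, in a second table, per genomic window, are what the authors deposited. The submitters' processing notes name bcl2fastq 2.17, HTSeq and STAR and the build GRCm38/mm10, with no version for HTSeq or STAR. In the gene table, 27 rows have dates where gene symbols should stand, hold 0.133% to 0.164% of a library's counts and stayed in library sizes and tests.

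Genes were tested with edgeR 4.0.16 in R 4.3.3 (quasi-likelihood test, TMM factors, filterByExpr with a minimum count of 10, group as the only term, all 8 libraries). P-values were adjusted by Benjamini-Hochberg over 13770 genes with a threshold of 0.05. Co-receptor to Ret ratios were formed after adding 0.5 to each count and tested by a two-sided exact permutation test. The procedure was tested on simulated data. DESeq2 1.42.0, limma-voom (limma 3.58.1), other scalings and filters, a block for the replicate number and leaving out libraries were the alternatives. Windows were given to genes by GENCODE vM21 on the same build and by the strand the table lists; the table does not say whether its coordinates count from 0 or 1, and the sources used here do not give how windows were chosen.

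The members and lists were chosen with earlier results of these data known. All 223 list entries were found in the table, of which 2 had an older symbol (Tafa4 as Fam19a4, Adgre1 as Emr1). Genes named are all members, Pspn, Gfral and Gdf15, of each list the 3 genes with the smallest p and the called genes, and the 3 genes most like Gfra1, Gfra2, Gfra3 and Ret. Other genes named (Frs3, Dusp6, P2rx3, Cblc, Ptprc, Lyz2, Avil, Prph, Trpv1 and genes at 0) were chosen after their values were seen. Window shares were taken over windows with at least 5% of a gene's window counts. Where many genes of a list qualified, some are given in the counts only, and the values of some genes are not reported here.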

Additional observations from a re-analysis of the deposited data

Results flagged for a closer look

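In 4 cases 1 library of a group of 4 lay far from the other 3, measured by its gap to the nearest library over the range of the group. The search covered both groups for the 8 members, Pspn, Gfral and Gdf15, and for the 3 ratios to Ret. Chance flags about 1 in 20 groups in this way where values are normally distributed. That rate need not hold for Gdnf and Artn, which had low counts. Gfra1 was lowest in naive 2, at 82.9 CPM against 92.4 to 94.4 CPM in the other naive libraries. Gfra3 was highest in naive 2, at 39.4 CPM against 32.3 to 33.1 CPM. Gdnf was highest in injury 3, at 0.579 CPM, which is 12 counts against 4 or 5 in the other injury libraries. Artn was highest in injury 2, at 0.390 CPM, which is 11 counts against 0 or 1.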

How the results depend on the processing

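All 86 log2 fold changes of the 5 tested receptors under the alternatives kept their direction and their side of the threshold. Leaving out each library in turn gave 1.93 to 2.04 for Gfra1, -0.72 to -0.65 for Gfra2, 0.83 to 0.96 for Gfra3, -0.56 to -0.32 for Gfra4 and 0.59 to 0.83 for Ret. The other alternatives gave 1.85 to 1.98, -0.75 to -0.67, 0.63 to 0.95, -0.55 to -0.41 and 0.56 to 0.76. Over all genes, 1738 to 2438 were called without 1 library, 1049 to 1356 higher and 689 to 1082 lower; the 689 came without naive 3, against 1068 with all libraries. With library sizes alone, 1100 were higher and 1581 lower, against 1387 and 1068 with TMM factors. The labels do not tie numbers to mice, so the pairing was not used in the main fit. Deviations of same-numbered libraries correlated at 0.131, 0.222, 0.0477 and 0.166. In pairs 1, 2 and 4 the naive library correlated best with the injury library of its own number. Which numbers belong to the same mouse was not settled by these values. With the replicate block 2633 genes were called and no receptor call changed. For the Gfra1 and Gfra2 to Ret ratios the paired exact sign-flip test gave the same 1.24 and -1.41 with p = 0.125, its smallest value. Without naive 2, injury 2 and injury 3 the ratios were 1.27 and -1.25 with an exact permutation p of 0.1, the smallest for those libraries. Without 1 library they were 1.16 to 1.33 and -1.49 to -1.30, and 0.054 to 0.34 for Gfra3. With the window past its end added, chosen after seeing the data, the Gfra3 ratio turned to -0.086. Differences in the leading window's share of the counts of the gene's windows with at least 5% each, in percentage points, were -59.3 to -24.0 for Gfra1, -0.754 to 6.04 for Gfra3 and -13.1 to 4.22 for Ret without 1 library; those of Gfra3 turned to -0.644 without naive 3 and -0.754 without injury 4, that of Ret to 4.22 without naive 1. Over all windows they were -35.7, 11.4 and -6.79, chosen after seeing the data. The cause was not tested. Of 578 list counts under alternatives, 55 moved by over 1.5 times. The ligand genes had at most 26 counts in any library, and why they were low was not tested.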

Other observations

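A window of the second deposited table lay past the annotated 3′ end of Gfra3 and was chosen after its values were seen. It is an ERVL-MaLR repeat at chr18:34688397-34688422 on the minus strand of GRCm38, 1476 bases downstream of that end, and overlaps no annotated gene. It held 1071, 1447, 717 and 1014 counts in naive libraries 1 to 4 and 1708, 1937, 1509 and 936 in injury libraries 1 to 4. The Gfra3 row of the gene table held 694, 825, 591 and 749 counts in naive and 1521, 1989, 1191 and 964 in injury libraries. The window thus had more reads than the gene row in every naive library. Its level was 50.9 ± 13.1 CPM in naive and 68.6 ± 8.0 CPM in injury libraries (SD, n = 4 per group), the groups overlapped, and a two-sided exact permutation test gave p = 0.0857 (0.15 after adjustment over 7 windows). Added to the gene row, it gave Gfra3 85.3 ± 16.3 CPM in naive and 132 ± 11.7 CPM in injury libraries (SD, n = 4 per group). Whether these reads belong to Gfra3 was not tested.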
